A study of Rattus norvegicus with 24 samples.

Results

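The Pfkfb genes encode the bifunctional enzymes 6-phosphofructo-2-kinase/fructose-2,6-bisphosphatase, and the rat array used here measured all 4 of them, Pfkfb1, Pfkfb2, Pfkfb3 and Pfkfb4. Members were selected by annotation: a probe set belonged to the family where its only gene symbol was one of these 4. This gave 10 probe sets of 31042 and 4 genes of 14217. Pfkfb1 had 1 probe set, Pfkfb2 had 4, Pfkfb3 had 3 and Pfkfb4 had 2. The family itself was chosen from its signals and fasting changes on these same arrays, so its levels and changes are given below as a description, with no p-value.

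The arrays held RNA of male Wistar rats, aged 8 weeks, from 3 tissues: brown fat between the shoulder blades (BAT, heat-producing), white fat beside the kidney (WAT, a storage depot) and liver. All rats were given food only from hour 10 to hour 16 for 7 days. On day 8, fed rats (animals 1, 2, 4 and 5) ate again while fasted rats (animals 6, 8, 9 and 10) did not, so that the fasted rats had gone 24 h without food when tissues were taken at hour 16. Each of the 6 groups had 4 arrays, 24 in all, with no transgene and no drug in any group; water was freely available to both.

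Each Pfkfb protein carries a kinase domain that makes fructose 2,6-bisphosphate and a phosphatase domain that removes it. Fructose 2,6-bisphosphate activates phosphofructokinase-1, the committing step of glycolysis, and inhibits fructose-1,6-bisphosphatase, the opposing step of gluconeogenesis, so the balance of both domains bears on the direction of flux. Pfkfb1 is the form of liver and skeletal muscle; in liver, phosphorylation by protein kinase A during fasting shifts it towards the phosphatase. Pfkfb2 is the form of heart and kidney, Pfkfb3 is an inducible form in which the kinase far outweighs the phosphatase and which is abundant in fat, and Pfkfb4 was first described in testis. Pfkfb3 and Pfkfb4 are both known targets of hypoxia-inducible factor. Messenger RNA levels do not report these activities, which depend on phosphorylation.

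The 4 genes lie on 4 different chromosomes of the RefSeq rat assembly GRCr8. The promoter windows of Pfkfb1, Pfkfb3 and Pfkfb4 are shown because their signals differed most between fed and fasted arrays; each runs from 250 bases before to 50 bases after the RefSeq gene start, 5′ to 3′ on the gene's strand. The windows are chrX:22941926-22942225 (+ strand) for Pfkfb1, chr17:71944683-71944982 (+ strand) for Pfkfb3 and chr8:118525916-118526215 (+ strand) for Pfkfb4. Capitals mark matches, on either strand, to 7 motifs searched: the E-box CACGTG, the hypoxia response core ACGTG, the GC box GGGCGG, the TATA box TATAAA, the FoxO site GTAAACA, the glucocorticoid half-site AGAACA and the cAMP response element TGACGTCA.
Pfkfb1: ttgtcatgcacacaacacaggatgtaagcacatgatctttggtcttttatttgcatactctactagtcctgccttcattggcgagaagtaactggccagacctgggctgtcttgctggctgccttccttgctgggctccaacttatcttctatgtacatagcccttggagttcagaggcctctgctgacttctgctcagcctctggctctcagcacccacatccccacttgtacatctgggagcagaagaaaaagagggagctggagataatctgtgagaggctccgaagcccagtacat
Pfkfb3: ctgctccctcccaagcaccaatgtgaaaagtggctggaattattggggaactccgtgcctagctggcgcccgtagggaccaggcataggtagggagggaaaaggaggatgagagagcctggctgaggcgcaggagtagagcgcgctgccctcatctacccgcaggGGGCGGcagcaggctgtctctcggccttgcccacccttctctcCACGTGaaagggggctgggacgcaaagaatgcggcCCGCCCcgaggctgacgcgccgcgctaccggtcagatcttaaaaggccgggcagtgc
Pfkfb4: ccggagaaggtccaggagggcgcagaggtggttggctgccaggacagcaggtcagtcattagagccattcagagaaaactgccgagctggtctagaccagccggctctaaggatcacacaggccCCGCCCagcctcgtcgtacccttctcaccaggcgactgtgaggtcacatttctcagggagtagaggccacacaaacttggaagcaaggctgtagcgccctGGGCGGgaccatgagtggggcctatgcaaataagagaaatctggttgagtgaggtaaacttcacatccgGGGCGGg

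The Pfkfb3 window held a CACGTG E-box starting at position -42 from the gene start, a motif found in 6.42% of 33469 windows of this length. The E-box contains the ACGTG core on both strands, and that core occurs in 19.3% of windows. Pfkfb3 also held GC boxes at positions -85 and -7, and Pfkfb4 held 3, at positions -126, -26 and 44; 33.1% of windows hold at least 1. The window of Pfkfb1, a gene known to use several promoters in the rat, held none of the 7 motifs. The Pfkfb2 window held 1 match, a FoxO site at position -191, as 3.78% of windows do. These matches are letters in a window and no evidence of binding.

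The tissues carried the markers of their labels. The mean log2 signal of 7 hepatocyte markers was 12.80 or more on every liver array and 5.69 or less on every fat array, and that of 6 adipocyte markers was 10.82 or more on every fat array and 4.45 or less in liver. Brown fat markers averaged 8.89 to 9.01 in fed BAT, 7.96 to 8.66 in fasted BAT and at most 5.53 elsewhere. They did not fall alike in BAT. Dio2 went from 119 to 31.0 and Prdm16 from 114 to 29.6, while Ucp1 (11463 to 10690) and Cidea (9093 to 8975) changed little. Elovl3, a dim marker, did not fall (9.10 to 9.72). Skeletal muscle markers (13 of 14 listed were measured) divided the fat arrays, except Myh1. It averaged 4929 fed and 5065 fasted in BAT, 1903 and 1933 in WAT, and 2379 and 2875 in liver. In fed BAT the mean log2 signal of the 13 markers was 6.99, 5.34, 4.26 and 11.39 in animals 1, 2, 4 and 5. In fasted BAT it was 11.75 to 12.22. In fasted WAT it was 10.77 and 11.81 in animals 8 and 10, against 4.56 and 3.95 in animals 6 and 9 and at most 4.05 in fed WAT. In liver it was 3.04 to 3.82. The Pfkfb differences in fat are therefore also given on arrays of like muscle marker level. The mean log2 signal of 8 macrophage markers was higher on every fasted than on every fed BAT array (7.58 to 7.85 against 7.05 to 7.44) and liver array (8.42 to 8.79 against 7.93 to 8.39). In WAT it was 9.03 ± 0.33 fasted and 8.56 ± 0.18 fed, with overlap. Single markers departed from that mean. In BAT, Ptprc (43.7 fed, 39.0 fasted) and Adgre1 (28.2 fed, 23.5 fasted) went down and the others up. In liver Lyz2 went from 1104 to 925 and Ptprc stayed at 74.1, while the others rose. In WAT only Ptprc went down (413 to 397). The part of macrophage and brown fat markers in the Pfkfb differences was not tested. Fewer cells of a type and less RNA per cell cannot be told apart in whole tissue.

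On its brightest probe set Pfkfb3, the inducible form with the dominant kinase, was higher on every fasted than on every fed array of both fats. In BAT its brightest probe set (1390391_at) had scaled signals of 382, 362, 385 and 284 in fed animals 1, 2, 4 and 5, and 1912, 2127, 1675 and 1544 in fasted animals 6, 8, 9 and 10. The fed and fasted BAT arrays did not overlap, and the fasted mean of 1815 ± 258 (SD, n = 4) was 5.14 times the fed mean of 353 ± 47.4. In WAT the fed signals were 495, 622, 641 and 360 and the fasted signals 1653, 2520, 2487 and 1821. The WAT arrays did not overlap either, and the fasted mean of 2120 ± 448 was 4.00 times the fed mean of 530 ± 130. On the log2 scale the fasted minus fed difference was 2.35 ± 0.13 (standard error of the fit, here and below) in BAT and 2.01 ± 0.21 in WAT. In liver the same probe set stood between 1.13 and 18.1 on all 8 arrays, and its mean lay under the 40th percentile of all probe sets, the floor used for testing. Fed and fasted livers overlapped at that level. Ordered by mean, the signal ran from fasted WAT to fasted BAT, fed WAT, fed BAT and the livers; fasted WAT and fasted BAT overlapped, as did fed WAT and fed BAT, while the steps from fasted to fed fat and from fed BAT to liver did not.

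The dimmer Pfkfb3 probe sets were also higher on fasted arrays in WAT, and differed from each other in BAT. Probe set 1369794_a_at read 63.1, 102, 127 and 49.2 in fed WAT and 220, 502, 589 and 207 in fasted WAT, with no overlap. In BAT it read 20.5, 69.6, 36.9 and 65.1 in fed animals and 76.8, 58.8, 344 and 246 in fasted animals, and 1 fasted array fell inside the fed range. The BAT arrays had been scanned on 2 days with 2 fed and 2 fasted arrays each, and within each day the fasted arrays lay above the fed ones: 344 and 246 against 69.6 and 65.1 on the first, 76.8 and 58.8 against 20.5 and 36.9 on the second. The dimmest probe set, 1397082_at, was higher on every fasted WAT array (11.4 to 48.5) than on any fed one (3.64 to 7.43). In BAT it overlapped, at 23.0 to 35.6 fed and 15.0 to 75.0 fasted, with a log2 difference of 0.03 ± 0.44; within the first scan day the groups overlapped, and on the second both fasted arrays lay below both fed ones (mean 17.3 against 24.5, log2 difference -0.47). The mean of the 3 probe sets gave a log2 difference in BAT of 1.35 ± 0.30.

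**Figure D1:**
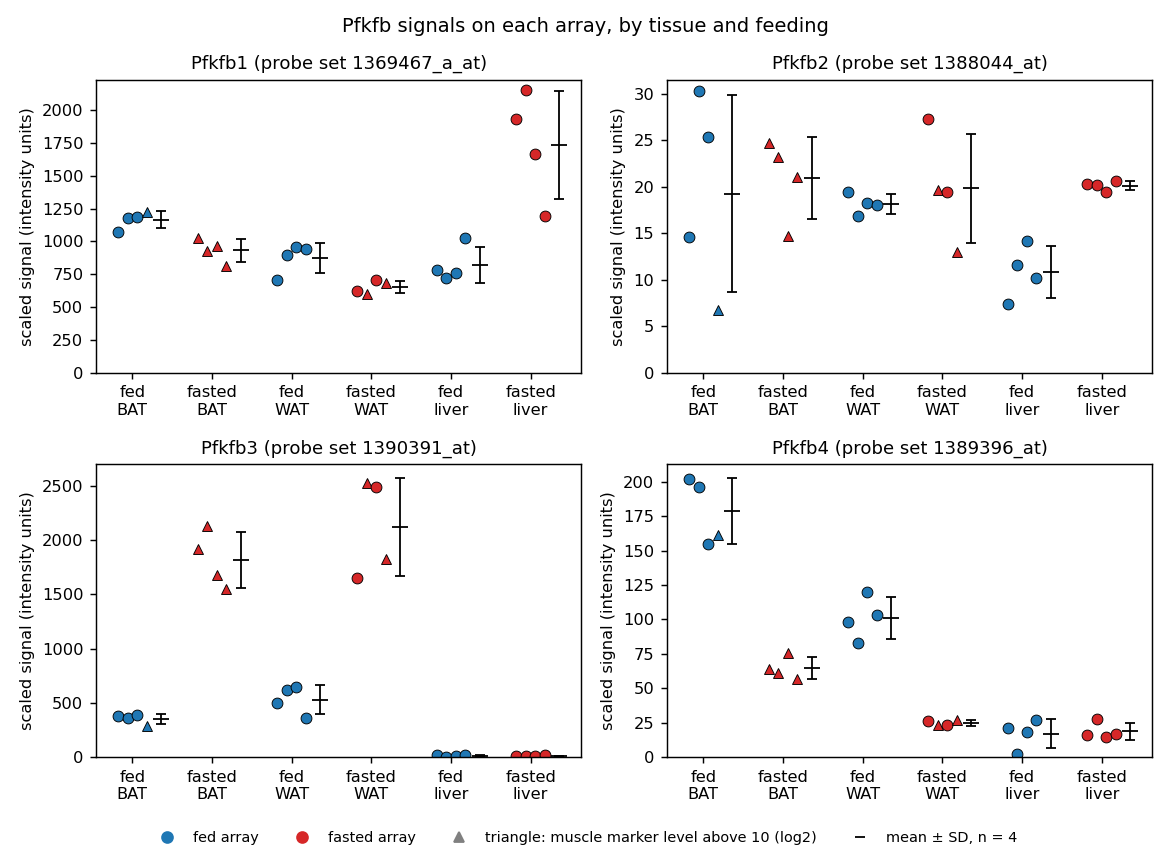
Scaled signal (intensity units, linear axis from 0) of the brightest probe set of each Pfkfb gene on every array, by tissue and feeding; circles and triangles are single arrays, triangles are arrays with a mean log2 muscle marker level above 10, and black marks are the mean ± SD of 4 arrays. Pfkfb3 stood at 1544 to 2520 on the 8 fasted fat arrays and at 284 to 641 on the fed ones, while Pfkfb4 was lower on every fasted fat array and Pfkfb1 was higher on every fasted liver array.

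Pfkfb4 went the other way in both fats. Its brightest probe set (1389396_at) read 202, 196, 155 and 161 in fed BAT and 64.1, 61.1, 75.7 and 56.9 in fasted BAT. In WAT it read 98.5, 83.0, 120 and 103 in fed animals and 26.1, 23.0, 23.3 and 27.2 in fasted animals. Fed and fasted arrays did not overlap in either fat: the fasted mean was 0.361 times the fed mean in BAT (64.5 ± 8.06 against 179 ± 24.1) and 0.246 times in WAT (24.9 ± 2.09 against 101 ± 15.3). The log2 differences were -1.44 ± 0.15 in BAT and -1.93 ± 0.17 in WAT. The second probe set, 1368719_at, also separated the groups, at 30.3 to 61.8 fed and 8.52 to 29.3 fasted in BAT and at 30.9 to 36.8 fed and 4.00 to 14.2 fasted in WAT. Fed BAT exceeded fed WAT on every array of the brighter probe set, and fasted BAT exceeded fasted WAT, whereas the second probe set overlapped in both comparisons. The fasted WAT signals of the brighter probe set were close to those of liver, where fed arrays read 21.3, 1.88, 18.4 and 27.0 and fasted arrays 16.2, 28.0, 14.7 and 16.7. In liver the feeding groups overlapped on both probe sets.

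Pfkfb1, the liver and muscle form, had a single probe set (1369467_a_at), bright in all 3 tissues, and its fed and fasted arrays lay farthest apart in liver. There it read 779, 719, 761 and 1026 in fed animals and 1934, 2156, 1666 and 1197 in fasted animals. Every fasted liver lay above every fed one, and the fasted mean of 1738 ± 413 was 2.12 times the fed mean of 821 ± 139, a log2 difference of 1.06 ± 0.18. The size differed between the scan days, at 0.72 on the first and 1.40 on the second. In BAT the signals were 1071, 1178, 1189 and 1228 fed and 1023, 928, 964 and 811 fasted, all fasted below all fed, with a fasted mean 0.799 times the fed mean (931 ± 89.2 against 1166 ± 67.1). In WAT they were 705, 893, 954 and 946 fed and 626, 599, 706 and 679 fasted, and the lowest fed array (705.4) fell just under the highest fasted one (706.1). The log2 differences in fat were small, -0.33 ± 0.10 in BAT and -0.41 ± 0.12 in WAT. Across the 6 groups, fasted liver had the highest mean but overlapped fed BAT; fasted BAT, fed WAT and fed liver followed and overlapped stepwise; fasted WAT was lowest and lay below every fed liver.

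Pfkfb2, the heart and kidney form, stayed near the floor on all 4 of its probe sets. The brightest (1388044_at) read 14.6, 30.4, 25.4 and 6.74 in fed BAT and 24.7, 23.2, 14.8 and 21.1 in fasted BAT, with wide overlap. In WAT it read 16.9 to 19.5 fed and 12.9 to 27.4 fasted, again overlapping. When muscle markers entered the fit, the log2 difference in BAT went from 0.26 ± 0.42 to 1.54 ± 0.52. In liver it was higher on every fasted array (20.3, 20.2, 19.4 and 20.7) than on any fed one (7.41, 11.6, 14.2 and 10.2), a log2 difference of 0.82 ± 0.29 and 0.44 ± 0.15 with a pseudocount of 16. The other 3 probe sets overlapped between fed and fasted in every tissue and did not share a direction in liver, where their log2 differences were -0.52 ± 0.42, 1.35 ± 0.53 and -0.02 ± 0.69. With signals this low, no level of Pfkfb2 could be resolved in these tissues.

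**Figure D2:**
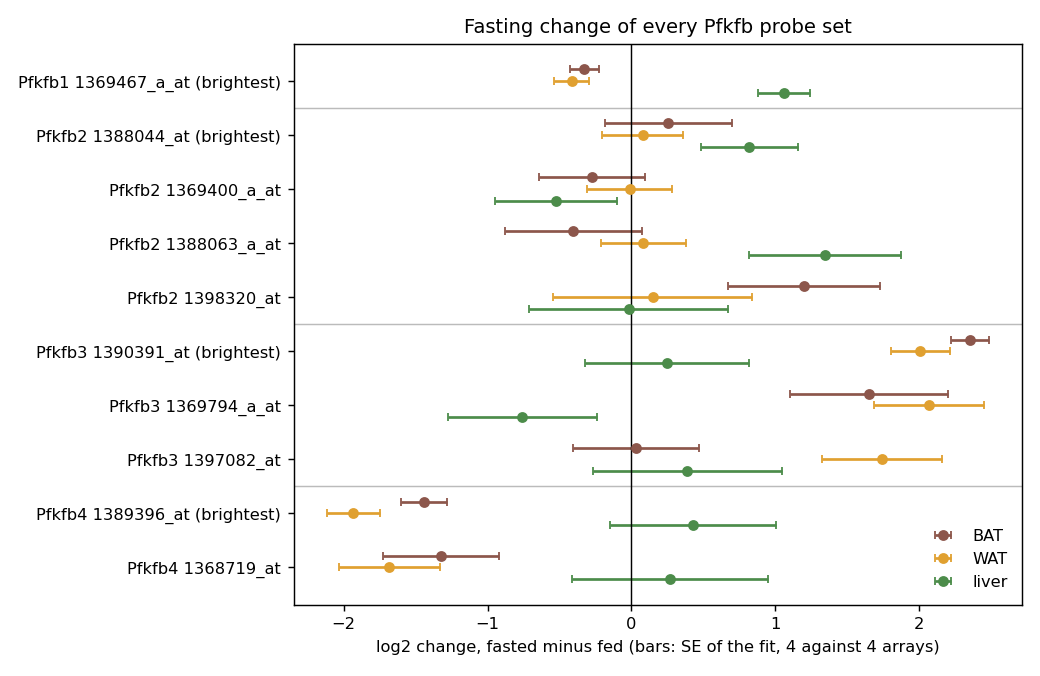
Log2 change of signal, fasted minus fed, for all 10 Pfkfb probe sets in BAT, WAT and liver; points are the fitted change of 4 fasted against 4 fed arrays and bars its standard error. All 3 Pfkfb3 probe sets lie to the right in WAT, both Pfkfb4 probe sets lie to the left in both fats, Pfkfb1 lies to the right in liver alone, and the Pfkfb2 probe sets scatter about 0.

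Of the 10 probe sets, 7 passed the floor in BAT, 6 in WAT and 4 in liver; by gene these were 4, 4 and 3, Pfkfb3 being the one left out in liver. A gene counted as called where its adjusted p in limma was under 0.05 over all genes tested. In BAT 3 of 4 Pfkfb genes were called, 1 higher and 2 lower, where 26.9% of all 10341 genes tested were called. In WAT it was 3 of 4, 1 higher and 2 lower, against 18.2% of 10275 genes, and in liver 1 of 3, higher, against 18% of 10251. Pfkfb1 was among the genes called lower in each fat. Its call was lost in both fats with median centring, with muscle markers in the fit and without any of several single arrays. Over the alternatives its log2 change stayed negative, from -0.44 to -0.21 in BAT and from -0.53 to -0.37 in WAT. Because the family was chosen for these contrasts, nothing is read from these counts.

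Fed to fasted differences were set against each other between tissues. For BAT minus WAT the difference of the log2 changes was 0.09 ± 0.20 for Pfkfb1 and 0.18 ± 0.48 for Pfkfb2. It was 0.35 ± 0.52 for Pfkfb3 and 0.49 ± 0.55 for Pfkfb4. None of the 4 was called (1.56% of all genes were). The standard errors came from a fit with a common variance over all tissues, liver included. For Pfkfb3 and Pfkfb4 the log2 SD was 1.28 and 1.34 in fed liver, against 0.38 or less in each fat group. Within single fats the standard errors were 0.13 (BAT) and 0.21 (WAT) for Pfkfb3, and 0.15 and 0.17 for Pfkfb4. The errors of 0.52 and 0.55 therefore do not give the precision of a comparison of the fats alone, which was not fitted. The error of 0.48 for Pfkfb2 leaves room for a sizeable difference. For BAT minus liver the difference of the log2 changes was -1.39 ± 0.20 for Pfkfb1, 2.11 ± 0.52 for Pfkfb3 and -1.87 ± 0.55 for Pfkfb4. For WAT minus liver it was -1.47 ± 0.20, 1.76 ± 0.52 and -2.36 ± 0.55 for the same genes. In each liver comparison 3 of 4 members were called, where 11.3% (BAT) and 8.08% (WAT) of all genes were, and nothing is read from these counts either, since the family was chosen on the same changes. The comparisons share arrays, and the liver part of Pfkfb3 and Pfkfb4 rests on signals near or under the floor.

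On their brightest probe sets, the differences of Pfkfb3 and Pfkfb4 were present in both fats on arrays of like muscle marker level. Values here are of the brightest probe sets unless another is named. In BAT, fed animal 5 was the sole fed array with a muscle marker level above 10. Its Pfkfb3 signal of 284 was the lowest of the fed arrays, against 1544 or more on the fasted ones, and its Pfkfb4 signal of 161 stood above the fasted range of 56.9 to 75.7. Its Pfkfb1 signal of 1228 was the highest of the fed arrays. On the dimmer Pfkfb3 probe sets this array lay inside the fasted range. It read 65.1 on 1369794_a_at (58.8 to 344 fasted) and 31.8 on 1397082_at (15.0 to 75.0 fasted). On the second Pfkfb4 probe set it read 37.2, above the fasted 8.52 to 29.3. Against this array alone, the log2 change was 2.66 ± 0.20 for Pfkfb3, -1.30 ± 0.26 for Pfkfb4 and -0.40 ± 0.18 for Pfkfb1. In WAT, without the muscle-rich fasted animals 8 and 10, it was 1.97 ± 0.26, -1.94 ± 0.21 and -0.38 ± 0.16. When muscle markers entered the fit, the log2 difference of Pfkfb3 was 2.63 ± 0.21 in BAT and 1.99 ± 0.27 in WAT, and that of Pfkfb4 was -1.39 ± 0.26 and -1.95 ± 0.22. Within scan days, the brightest probe set of Pfkfb3 differed by 1.85 to 2.39 and that of Pfkfb4 by -2.07 to -1.41 over both fats. The dimmer Pfkfb3 probe sets differed by -0.47 to 2.08 and the second of Pfkfb4 by -2.65 to -0.88. In WAT day 1 held 1 fasted array. Fasted WAT animal 9 was scanned alone on day 3 and entered none of these differences.

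**Figure D3:**
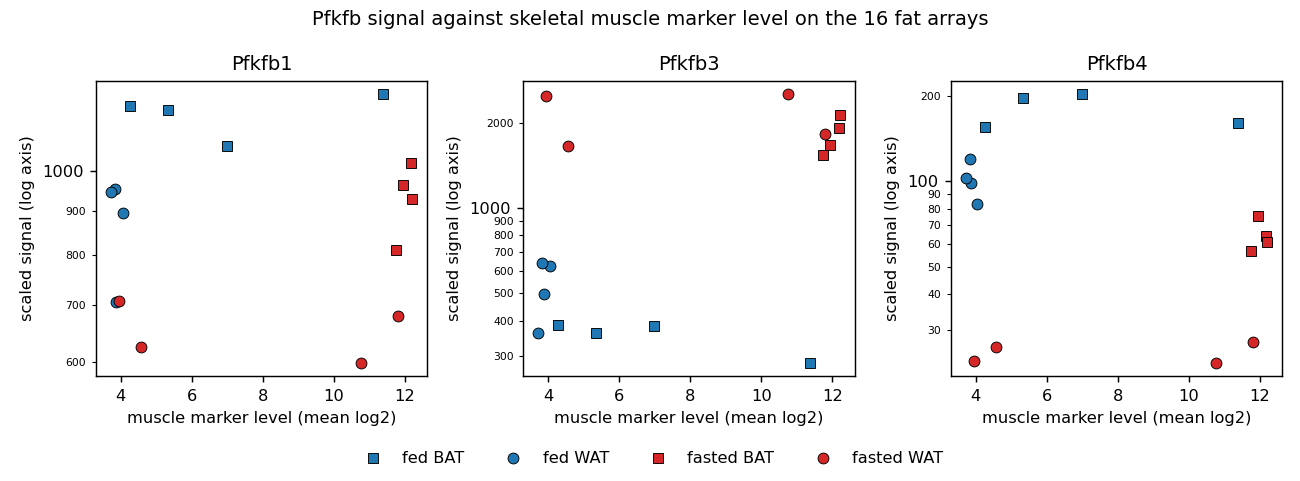
Scaled signal (log axis) of Pfkfb1, Pfkfb3 and Pfkfb4 against the mean log2 signal of 13 skeletal muscle markers on the 16 fat arrays; squares are BAT, circles WAT, blue fed and red fasted. The signals are of the brightest probe sets. At low and at high muscle marker levels alike, Pfkfb3 lay at 1544 or more on fasted arrays and at 641 or less on fed ones.

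Phosphofructokinase-1, which fructose 2,6-bisphosphate activates, was measured through Pfkl, Pfkm and Pfkp, its liver, muscle and platelet subunits. Pfkl fell in both fats, by 0.77 ± 0.11 on the log2 scale in BAT (1018 ± 101 to 598 ± 64.8, adjusted p = 0.000872) and by 0.94 ± 0.16 in WAT (340 to 175, adjusted p = 0.00338). The BAT call did not hold when muscle markers entered the fit (-0.58 ± 0.18, adjusted p = 0.125), while the WAT call held on the muscle-poor arrays (-1.07 ± 0.20, adjusted p = 0.0154). Pfkm rose in BAT (0.96 ± 0.17, adjusted p = 0.00277), along with the muscle markers, and was at 0.38 ± 0.19 once these entered the fit (adjusted p = 0.344). Pfkp passed the test in no tissue. Of the fructose-1,6-bisphosphatases, which fructose 2,6-bisphosphate inhibits, the liver enzyme Fbp1 was bright in liver, at 5412 fed and 5029 fasted (-0.11 ± 0.09, adjusted p = 0.462), and below the floor in fat. The muscle enzyme Fbp2 was tested in BAT alone (0.41 ± 0.21, adjusted p = 0.192). None of these 5 genes differed between tissues in its fasting change at an adjusted p under 0.05 in limma; at an unadjusted p under 0.05 there was 1, Fbp1 in BAT minus WAT (1.78 ± 0.66), which lay below the floor in both fats.

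Around this step, 69 pathway genes in 7 lists were considered, of which 63 were measured. In BAT 24 of 56 tested were called, 10 higher and 14 lower. WAT had 18 of 54, 4 higher and 14 lower (25 with scan day as a block, 11 higher and 14 lower). Liver had 12 of 55, 7 higher and 5 lower. Over all genes tested, 26.9% were called in BAT, 18.2% in WAT and 18% in liver. The counts of single lists below are to be read beside these shares, and no list was tested as a set. The BAT count was 3 when muscle markers entered the fit and 3 on the muscle-rich arrays alone, and in both cases these were Pck1, Mlxipl and Bnip3. In WAT the counts were 19 and, on the muscle-poor arrays, 17. In BAT muscle marker level largely went with feeding, so the lower BAT counts cannot tell muscle content from fasting. The log2 ratio of the actin 3′ to 5′ probe sets, a measure of RNA quality, was 1.93 and 1.80 in fed BAT animals 1 and 4, both scanned on day 2, and 1.04 and 1.07 in fed animals 2 and 5, scanned on day 1, against 0.85 to 1.07 in fasted BAT. Its part in the BAT results was not tested.

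Of the glucose entry genes, 3 of 4 tested were called in BAT, 1 higher and 2 lower, and 2 of 4 in WAT, both lower. The insulin-responsive transporter Slc2a4 fell by 0.56 ± 0.08 in BAT and by 1.53 ± 0.17 in WAT (adjusted p = 0.000876 and 0.000341), and Hk2, the hexokinase of insulin-sensitive tissues, fell by 1.64 ± 0.32 and 1.88 ± 0.28 (adjusted p = 0.00412 and 0.00172). In BAT neither call held when muscle markers entered the fit. The basal transporter Slc2a1 rose in BAT (0.87 ± 0.19, adjusted p = 0.0083) and did not pass in WAT (0.56 ± 0.30). Its BAT call ended in 4 of 19 alternative settings, among them muscle markers in the fit and each scan day alone. In liver 1 of 4 tested genes of this list was called: Gckr, which holds glucokinase in the nucleus, fell by 1.23 ± 0.21 (adjusted p = 0.00284). The median log2 change of the list was -0.32 in BAT, -0.87 in WAT and -0.18 in liver, beside 0.01, 0.03 and 0.03 over all genes.

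Below phosphofructokinase, 4 of 11 tested glycolytic genes were called in BAT, 3 of 10 in WAT and 4 of 10 in liver. In liver all 4 fell: Pklr, the liver pyruvate kinase, by 2.30 ± 0.21 (1180 to 238, adjusted p = 3.61e-05), and Gpi, Tpi1 and Eno1 by 0.50 ± 0.14, 0.48 ± 0.12 and 0.40 ± 0.10. In WAT Eno1, Pgam1 and Ldha fell, by 0.59 ± 0.13, 0.45 ± 0.11 and 0.43 ± 0.13. The WAT calls of Pgam1 and Ldha ended in 8 and 9 of 19 alternative settings, and that of Eno1 in 2. The liver call of Gpi ended in 7 of 17, and those of Tpi1, Eno1 and Pklr in at most 2. In BAT Pgk1 and Pgam1 fell by 0.44 ± 0.09 and 0.35 ± 0.07. The muscle forms Pgam2 and Eno3 rose there with the muscle markers, by 5.11 ± 1.18 and 4.40 ± 0.93. These BAT calls ended in 4, 4, 3 and 3 of 19 settings in the order named, muscle markers in the fit among them. The list medians were -0.11 in BAT, -0.32 in WAT and -0.34 in liver. Of 6 gluconeogenic genes, Pck1, whose enzyme makes phosphoenolpyruvate and in fat feeds glycerol synthesis, rose in all 3 tissues, by 1.93 ± 0.14 in BAT, 2.24 ± 0.23 in WAT and 1.53 ± 0.12 in liver (adjusted p = 1.48e-05, 0.00026 and 1.36e-05). Pc (pyruvate carboxylase, 0.75 ± 0.19) and Got1 (a transaminase of the malate shuttle, 1.51 ± 0.18) also rose in liver. Slc37a4, the glucose 6-phosphate transporter, fell by 1.05 ± 0.24 in WAT, and its change was higher in BAT than in WAT by 1.33 ± 0.26 (adjusted p = 0.00664).

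**Figure D4:**
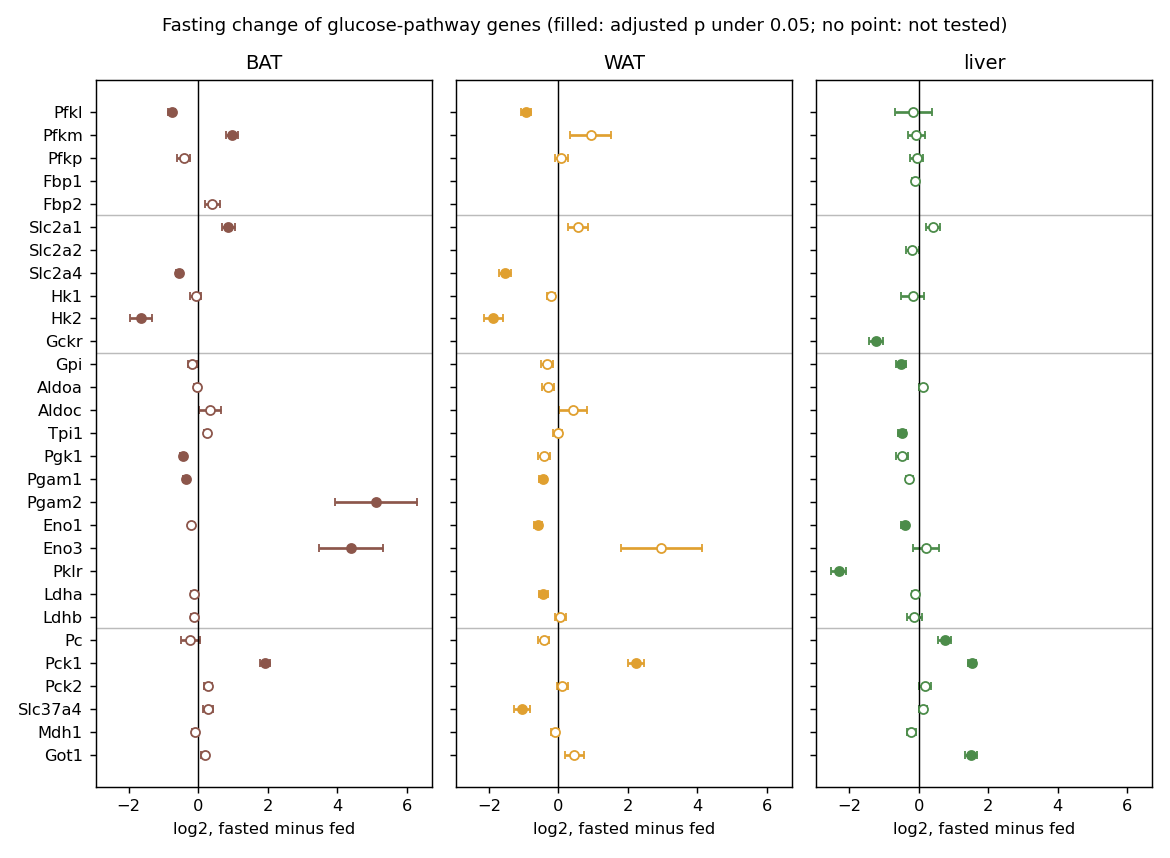
Log2 change, fasted minus fed, of 29 measured genes of 4 lists (from the top: phosphofructokinase-1 and fructose-1,6-bisphosphatase, glucose uptake and hexokinases, lower glycolysis, gluconeogenesis) in each tissue; bars are standard errors, filled points have an adjusted p under 0.05 and genes under the floor have no point. Slc2a4 and Hk2 lie to the left in both fats, Pklr and Gckr to the left in liver and Pck1 to the right in every tissue.

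Kinases that phosphorylate Pfkfb proteins were called in 3 of 10 cases in BAT, all lower, and in 4 of 10 in WAT, 1 higher and 3 lower. In liver 2 of 9 were called, both higher. The shares of all genes called were 26.9%, 18.2% and 18%. Prkaa1, a catalytic subunit of the energy sensor AMP-activated kinase, rose in WAT (1.12 ± 0.16, adjusted p = 0.00174) and liver (0.71 ± 0.19, adjusted p = 0.0225). The other catalytic subunit, Prkaa2, fell in BAT (0.51 ± 0.16 lower) and WAT (1.30 ± 0.27 lower) and rose in liver by 0.74 ± 0.12, and its change in WAT minus liver was -2.04 ± 0.29 (adjusted p = 7.3e-05). Akt2, a kinase of the insulin response, fell in BAT and WAT by 0.40 ± 0.11 and 0.58 ± 0.13. Prkaca, a catalytic subunit of protein kinase A, fell by 0.52 ± 0.14 and 0.61 ± 0.15. Another catalytic subunit, Prkacb, did not pass in BAT (0.01 ± 0.11) or in WAT (0.19 ± 0.14). The Prkaca calls ended in 11 of 19 settings in BAT and 10 of 19 in WAT, and those of Akt2 in 6 and 4. For Prkaa2 the BAT call ended in 12 of 19 settings, and for Prkaa1 the liver call ended in 6 of 17. The remaining calls of Prkaa1 and Prkaa2 ended in at most 2.

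Among transcription factors known to act on Pfkfb genes, Mlxipl, which encodes the glucose-sensing factor ChREBP, fell in both fats, by 1.90 ± 0.11 in BAT (1231 to 326, adjusted p = 6.42e-06) and by 2.55 ± 0.17 in WAT (848 to 140, adjusted p = 2.82e-05). Its partner Mlx fell by 0.77 ± 0.12 and 1.99 ± 0.20, with a change 1.22 ± 0.23 higher in BAT than in WAT (adjusted p = 0.00543). In liver neither passed (-0.30 ± 0.25 and -0.38 ± 0.14), and the change of Mlxipl differed from that of liver in BAT by -1.60 ± 0.29 and in WAT by -2.25 ± 0.29. Hif1a, a subunit of hypoxia-inducible factor, fell in BAT (0.72 ± 0.15 lower, adjusted p = 0.00635) and was at -0.09 ± 0.10 in WAT; the difference between the fats did not pass (-0.63 ± 0.17, adjusted p = 0.0686). Foxo1, a factor held in check by insulin, rose in BAT (0.72 ± 0.15, adjusted p = 0.0063). The BAT calls of Foxo1, Hif1a and Mlx ended in 5, 3 and 2 of 19 alternative settings, muscle markers in the fit among them. That of Mlxipl ended in 0. In liver 0 of 9 passed in limma, and 3 had an unadjusted p under 0.05. Of the hypoxia-inducible factor targets, 7 of 12 were called in BAT (4 higher, 3 lower), 4 of 13 in WAT (2 and 2) and 2 of 13 in liver (both higher). Among all genes tested the shares were 26.9%, 18.2% and 18%. The mitophagy receptor gene Bnip3 rose in all 3 tissues, by 1.21 ± 0.13, 0.98 ± 0.11 and 1.26 ± 0.16. Ndrg1 rose in BAT and WAT (0.94 ± 0.20 and 1.42 ± 0.24), and Higd1a fell in both (0.55 ± 0.12 and 1.06 ± 0.15 lower). The BAT calls of Ndrg1 and Higd1a ended in 2 and 3 of 19 settings, muscle markers in the fit among them.

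The genes whose signal followed each member most closely were found by Pearson's r over the 24 arrays after subtracting each tissue's mean, among 10448 genes; the arrays share tissues and the feeding contrast, so r is a description. For Pfkfb3 these were Tcf7l2 (r = 0.92), Coq10a, Ctps2 and Gadd45g (all 0.89). Tcf7l2 went from 246 ± 30.01 to 473 ± 44.8 in BAT and from 325 ± 31.2 to 861 ± 109 in WAT, and was 292 ± 87.3 fed and 281 ± 37.4 fasted in liver. Unlike Pfkfb3 it was therefore as bright in fed liver as in fed fat. For Pfkfb4 they were Trmt61a (r = 0.84), Mogat2, Nr2c2ap and Smg5 (all 0.82); Mogat2, which makes diacylglycerol, went from 89.2 ± 16.5 to 25.2 ± 8.21 in BAT and from 219 ± 86.9 to 13.6 ± 2.13 in WAT. For Pfkfb1 they were Dnaja3 (r = 0.88), Por and Pex11a (both 0.86) and Colq (0.85); Pex11a, a gene of peroxisome division, was lower in fasted fat and went from 143 ± 42.0 to 824 ± 138 in liver. With tissue differences left in, the closest to Pfkfb3 were Sspn, Slc1a3, Uaca and Trim35 (r = 0.98 for each), to Pfkfb4 Irak3, Dph3, Shc1 and Tomm20 (0.92 to 0.91) and to Pfkfb1 Ppcs, Exosc5, Btd and Colq (0.84 to 0.82). For Pfkfb2 no gene exceeded 0.77, the value of Gtf3c1.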

How the data were processed

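Total RNA from 24 tissue samples was hybridised to Affymetrix Rat230_2 arrays, with cRNA labelled from 2 µg of RNA per the labels' protocols. The authors deposited MAS5 intensities on a linear scale, per the submitters' processing notes; the MAS5 version and its settings are not given in the sources used here. All further steps started there. A 2% trimmed mean of 129 was set for every array (93.4 to 206 as deposited), and log2(signal + 1.9) was taken, 1.9 being the 10th percentile of all signals; this understates the changes of dim genes. The 57 control probe sets were left out. Symbols came from the platform annotation, updated through gene identifiers for 20758 probe sets. The brightest probe set stands for a gene, which was tested where its mean log2 signal exceeded the 40th percentile of all probe sets. Fed and fasted arrays were compared per tissue, and tissues by interaction terms over all 24 arrays, with limma 3.58.1 in R 4.3.3 (mean-variance trend, two-sided, Benjamini-Hochberg over all genes tested). Alternatives changed the scaling (quantile, median centring, none for levels), the pseudocount (16), the filter, the choice of probe set, the arrays in the fit, scan day, muscle marker level and the animal block. The fits were checked on simulated data. Promoter sequences are RefSeq's for GRCr8, matched by symbol for all 4 members.

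Errors are SDs of 4 arrays for signals and model standard errors for log2 changes. Precision is limited by having 4 arrays a group. The signals of different probe sets are not comparable with each other. Each group holds 4 animals; whether equal numbers in different tissues are the same animal is not stated in words, so the animal number entered as a block in an alternative only. The correlation of same-numbered samples' deviations ran from -0.01 to 0.15 over 24 pairs, and 5 exceeded 0.1. The members and gene lists were chosen with earlier results of these data known. Named pathway genes are the first 4 of each list by p in a tissue and the 5 enzymes that fructose 2,6-bisphosphate acts on. The genes most like each member are named too, and Prkacb is named beside Prkaca.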

Additional observations from a re-analysis of the deposited data

Results flagged for a closer look

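Within groups of 4 arrays, 6 of 66 member probe set and muscle marker groups had 1 array standing apart from the others by a Dixon test, where chance gives about 1 in 20. All 6 had signals of at most 28.0. For Pfkfb2, probe set 1369400_a_at read 4.71 in fasted liver animal 6 against 15.3 to 17.3 in the others, and 1398320_at read 13.8 in fed BAT animal 1 against 1.53 to 2.72. For Pfkfb3, 1397082_at read 20.8 in fed liver animal 5 against 3.10 to 4.28. For Pfkfb4, 1389396_at read 28.0 in fasted liver animal 8 against 14.7 to 16.7, and 1368719_at read 9.65 in fed liver animal 5 against 0.68 to 1.12 and 16.2 in fasted liver animal 9 against 0.50 to 1.74.

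Pfkfb1 was lower on every fasted BAT array and higher on every fasted liver array (log2 difference between the changes -1.39), which is a description with no p, because the family was chosen on these changes. The fasting change differed between BAT and WAT for Slc37a4 (1.33 higher in BAT) and Mlx (1.22 higher in BAT), by limma's interaction test.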

How the results depend on the processing

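Counts of called genes moved most with the settings on muscle marker level and scan day. In BAT muscle marker level largely went with feeding (4.26 to 11.39 fed, 11.75 to 12.22 fasted). Entering it widened the standard error of Pfkfb4 in BAT from 0.15 to 0.26, while its log2 change went from -1.44 to -1.39. The lower BAT counts therefore cannot tell muscle content from fasting. With muscle marker level as a covariate BAT had 358 calls instead of 2782 and WAT 1155 instead of 1867; on arrays of like muscle level, a choice made after the data were seen, they had 337 and 1044, and the lone fed BAT array there is assumed to vary like the fasted ones. BAT pathway calls went from 24 to 3 under both. Scan day 1 alone left 1203 calls in BAT (13 of them pathway genes) and 933 in WAT, scan day 2 alone 262 in WAT (7 pathway genes), 979 in liver and 14 pathway genes in BAT, and scan day as a block raised liver to 2929 (23 pathway genes against 12); fewer arrays enter a single day. Leaving out 1 array gave 1172 (without fed WAT animal 5) to 2210 calls in WAT. For the tissue differences, all arrays with the same animal number were left out together, 1 from each tissue. That gave 79 to 169 calls for BAT minus WAT and 761 to 1062 for BAT minus liver, both lowest without animal 2. The replicate block on the animal number gave 208 calls for BAT minus WAT (163 without it), 1325 for BAT minus liver (1184) and 980 for WAT minus liver (844). Of the pathway genes, 2, 8 and 12 were called with it in these comparisons (2, 7 and 10 without it). Values of single genes with this block are not given here. The data do not show that equal numbers pair the samples. Egln1 in BAT turned to 0.14 with the mean of its probe sets, and the cause was not tested. Pfkfb3 and Pfkfb4 in fat and Pfkfb1 in liver kept their direction in every alternative run. The dimness of Pfkfb2, and of Pfkfb3 and Pfkfb4 in liver, limits what can be said there.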
